A study of Mus musculus with 248 samples.

Results

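Blood RNA at month 1 after induction was examined in 10 mice of the conditional Cbfb-MYH11 (CM) leukemia model, divided by whether the validation cohort's table held a month 4 library for the mouse. The 5 mice without one form the no-month-4 group and the 5 mice with one form the month-4 group, so that no measured value chose the members. Each group was set against the 6 control (Ctrl) mice of the same month, which makes 16 of the series' 248 libraries. Whether mice that left the monthly series early already differed at month 1 from those followed for longer is the question this division addresses.

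All mice were C57BL/6, 4 to 8 weeks old at induction, and all, controls included, had received 7 doses of 14 mg/kg poly(I:C), a double-stranded RNA mimic that induces interferon and through it the Mx1-Cre recombinase. By their labels, CM mice carried Cbfb+/56M with Mx1-Cre (genotype code CHW), which the knock-in reads of mouse 2700, given below, did not bear out. Control littermates were wild-type, Cbfb+/56M or Mx1-Cre animals. Their codes were WT in 1 mouse, CW in 3 and HW in 2, and the labels do not say which allele CW or HW stands for. The Mx1 promoter responds to interferon in many tissues, so recombination need not be limited to blood cells. Bulk RNA came from retro-orbital blood, labelled PBMC, drawn before induction (month 0) and each month afterwards.

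The working names of early and late leukemia do not hold for every mouse. In the no-month-4 group 4 of 5 mice ended at month 2 or 3 and had a further library labelled L in place of a month. Mouse 2709 of that group had libraries at months 5 and 6 and none labelled L, so it lacked only the month 4 library. Of the 5 month-4 mice, 2684 and 2718 had a library labelled L, and the other 3 were sampled to month 6 without one. The groups are therefore named here by the month 4 library alone. Sex was unevenly divided, with 4 females and 1 male in the no-month-4 group, 1 female and 4 males in the month-4 group, and 3 of each in Ctrl.

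CBFB is the partner of the RUNX transcription factors in blood cell development, and its fusion to smooth muscle myosin heavy chain holds back normal maturation. In this model preleukemic progenitors expand first, and overt leukemia is marked by blasts bearing KIT, the receptor for stem cell factor. KIT is also needed by mast cells and by early red cell precursors, and GATA factors drive many genes of both lineages.

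The 16 libraries held 12.6 to 18.5 M reads and came from 1 sequencing run with unstranded preparation. Levels are log2 of the counts scaled to library size (CPM), on which 0 reads is -6.3. Individual values are listed for mice 2690, 2708, 2709, 2719 and 2731 in the no-month-4 group and for mice 2684, 2685, 2686, 2700 and 2718 in the month-4 group, always in that order, and for Ctrl as the lowest, median and highest. Differences are fitted log2 values ± SE from limma with sex as a covariate (n = 5, 5 and 6 separate mice). A gene was called at a Benjamini-Hochberg adjusted p under 0.05 over all 13607 genes. Red cell genes summed to 7490 to 62800 CPM and neutrophil genes to 1870 to 5380 CPM over the 16 mice, although the samples were labelled PBMC. Which cells carried these transcripts was not tested. In sex-linked transcripts 2 CM mice labelled female differed from the other 3, with Xist at 6.34 in 2731 where the others read 9.12 to 9.84, and the Y-linked Ddx3y at 2.7 in 2690. At month 0 mouse 2731 read 1.24 for Xist and 5.21 for Ddx3y. Mouse 2718, labelled male, then read 5.7 for Xist. Sex entered every fit as labelled.

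The MYH11 part of the knock-in, listed as MHY11, was 4.37, 4.13, 3.88, 4.28 and 4.1 in the no-month-4 group and 4.12, 4.02, 3.82, 0.05 and 4.27 in the month-4 group. Mouse 2700 stood apart from the other 9 CM mice, against its label. At months 2 to 6 it read -1.45, -6.3, -6.3, -4.24 and -6.3. It stays in the month-4 group as labelled. Values without it are given beside a month 1 difference between the CM groups, among the genes and lists described, where they moved it by about 1.5 times or more. Without 2700 the month-4 group held males only. Ctrl ran from -3.7 through -0.85 to 3.75, and the 2 HW mice had the highest values, 3.75 and 3.34. Before induction 9 CM mice already read 3.52 to 4.02 and mouse 2700 read -1.17, so this row follows the knock-in sequence and does not show recombination. Cbfb fell by 0.39 from Ctrl in the no-month-4 group (SE 0.12, adjusted p = 0.019, limma), and its difference was -0.3 in the month-4 group (adjusted p = 0.158). Cbfb was 6.83, 6.98, 7.04, 6.87 and 6.92 in the no-month-4 group and 6.46, 6.75, 6.56, 7.25 and 6.95 in the month-4 group. The 2 HW Ctrl mice read 6.82 and 6.83, at or below every no-month-4 mouse, and the other 4 Ctrl mice read 7.31 to 7.5, so the groups overlapped through the HW mice.

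Against Ctrl, 1309 genes were called higher and 3148 lower in the no-month-4 group, 9.62% and 23.1% of those tested (32.8% together, with 43.4% at an unadjusted p under 0.05). The month-4 group had 3 genes called against Ctrl, all higher (0.022%), with 3062 genes (22.5%) at an unadjusted p under 0.05. Both comparisons use the same 6 Ctrl mice, and the gap between their counts is no test of the groups against each other. That test called 0 genes with limma, although 15.6% of genes (2117) had an unadjusted p under 0.05. The limma-voom fit of the recovered reads called 1. The gene called by voom, Psapl1, was -2.84 ± 0.40 in the no-month-4 relative to the month-4 group (adjusted p = 0.0468) and was named after its value was seen. With median-ratio scaling the no-month-4 calls against Ctrl were 2179 higher and 2087 lower, and the median of all genes moved from -0.09 to 0.02.

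**Figure D1:**
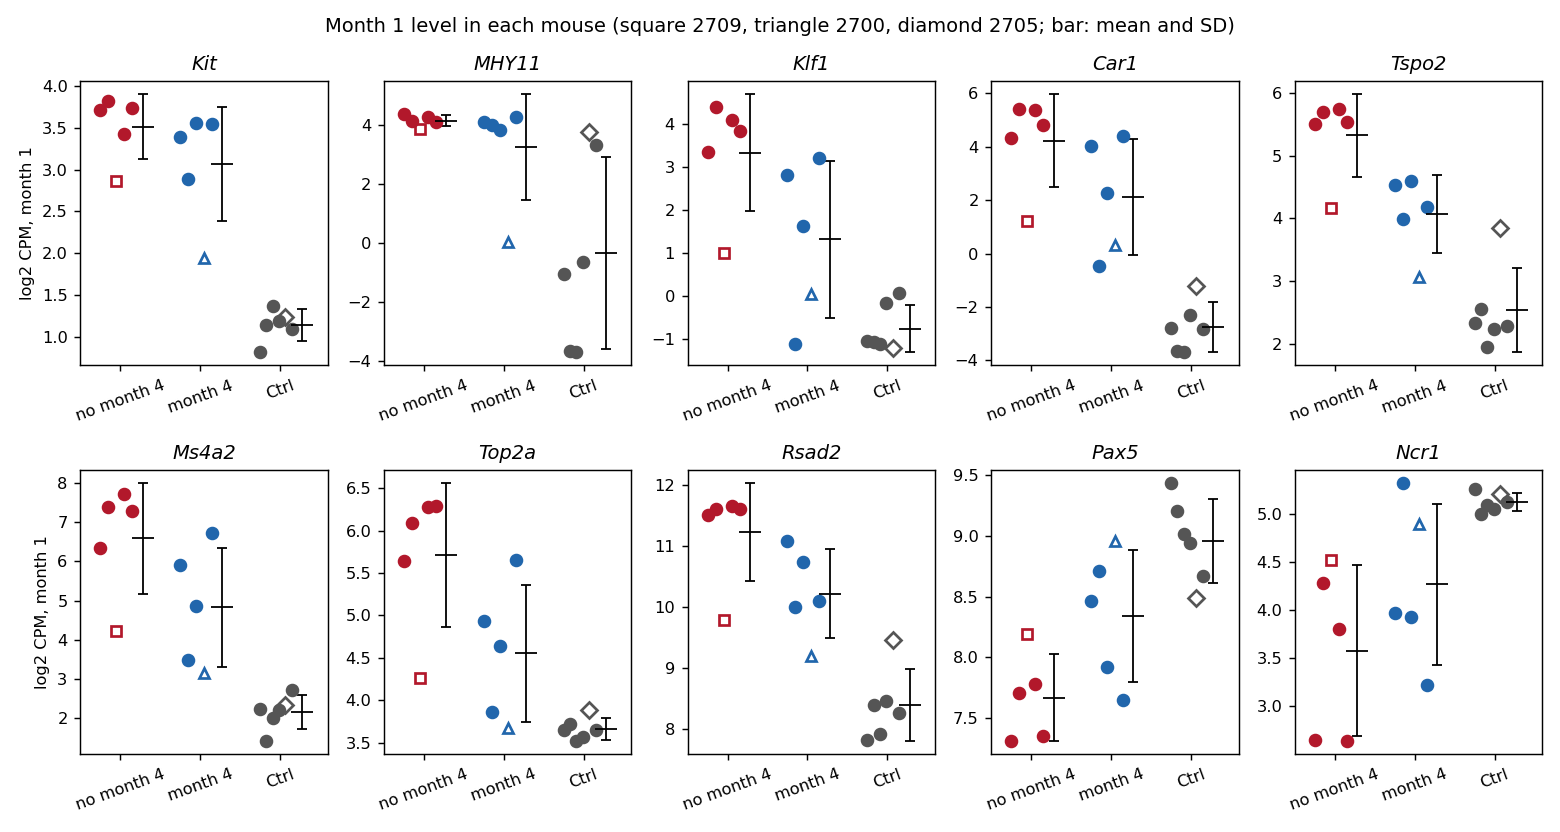
Level of 10 genes at month 1 in log2 CPM (vertical axes) in the no-month-4, month-4 and Ctrl mice (horizontal axes). Each point is 1 mouse, with 2709, 2700 and 2705 as open symbols, and the bar gives the mean and SD of the group. For Ms4a2 mouse 2709 read 4.23, below the other no-month-4 mice at 6.34 to 7.72.

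Red cell genes were higher as a whole list in the no-month-4 group. All 20 measured members rose against Ctrl, where 9.62% of all genes were called higher, and their median difference was 3.03 beside -0.09 over all genes. Against Ctrl the month-4 group had 0 of 20 called and 20 above 0 (median 1.58 beside -0.1). Between the CM groups 0 were called and 20 of 20 were above 0, with a median of 1.42 beside -0.01. In bulk blood, more cells of a type and more RNA per cell cannot be told apart, here and in what follows.

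Klf1 encodes the transcription factor on which most red cell genes depend. It was 3.35, 4.4, 1.0, 4.1 and 3.83 in the no-month-4 group and 2.81, -1.11, 1.63, 0.05 and 3.2 in the month-4 group, with Ctrl from -1.21 through -1.06 to 0.06. All no-month-4 mice lay above the Ctrl range, while 2685 and 2700 lay within it, and the 2 CM groups overlapped. Klf1 rose by 4.29 ± 0.75 over Ctrl in the no-month-4 group (adjusted p = 0.00105, limma). Its difference from Ctrl was 1.87 in the month-4 group (adjusted p = 0.166), and 2.42 ± 0.85 between the CM groups (adjusted p = 0.238).

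Car1, a carbonic anhydrase of red cells, was 4.31, 5.42, 1.21, 5.38 and 4.81 against 4.04, -0.47, 2.25, 0.33 and 4.4, with Ctrl from -3.7 through -2.8 to -1.21. Every CM mouse was above every Ctrl mouse, and the lowest were 2709 in the first group and 2685 and 2700 in the second. Car1 rose by 7.39 ± 0.88 over Ctrl in the no-month-4 group (adjusted p = 0.000282, limma), and the CM groups differed by 2.97 ± 1.0 (adjusted p = 0.23). Ermap, a membrane protein of erythroblasts, and Kel, the Kell blood group protein, rose by 5.16 ± 0.68 and 4.1 ± 0.5 in the no-month-4 group.

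Some genes with a role in red cells, though not in the red cell list, had some of the smallest unadjusted p-values between the CM groups. They were named by p and grouped with red cells afterwards. Tspo2, a translocator protein of erythroblasts, was 5.5, 5.69, 4.16, 5.74 and 5.53 against 4.53, 3.99, 4.59, 3.06 and 4.18, with Ctrl from 1.95 through 2.31 to 3.85. Of the no-month-4 mice 4 lay above the whole month-4 group, and 2709 lay within it. The difference was 1.7 ± 0.37 (adjusted p = 0.199, limma). Urod, an enzyme of heme synthesis, was 0.95 ± 0.21 from the month-4 group, Glrx5, which serves iron-sulfur cluster assembly, 1.07 ± 0.24, and Prdx2, a peroxidase abundant in red cells, 1.16 ± 0.27, each at adjusted p = 0.199.

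Globin transcripts separated the CM groups less. Reads of the 4 adult globin genes made up 4.39%, 5.54%, 3.02%, 5.13% and 5.29% of the library in the no-month-4 group and 4.54%, 3.22%, 5.54%, 1.78% and 1.85% in the month-4 group. Ctrl ran from 0.673% through 1.21% to 1.83%. Mouse 2700 lay within the Ctrl range and 2718 just above it, and the CM groups overlapped. The difference in mean log2 percent was 0.58, with p = 0.19 in an exact two-sided permutation test over 252 splits (smallest possible p = 0.00794). Without 2700 it was 0.39 (p = 0.325 in the same exact test). The splits took no account of sex, nor did those of the like test of Kit below.

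Mast cell and basophil genes had the highest median of the lists in the no-month-4 group as fitted, though not with quantile normalization, where red cell genes did (3.03). Of 15 measured members 10 were called higher and 0 lower than Ctrl in the no-month-4 group (median 4.09, or 2.49 with quantile normalization). The month-4 group had 0 of 15 called against Ctrl (median 1.61), and the CM groups 0 (median 1.53, 13 of 15 above 0, and 1.01 without 2700). Cma1, a chymase, and Hdc, which forms histamine, were among the members not called in the no-month-4 group.

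Ms4a2, the beta chain of the high-affinity IgE receptor, was 6.34, 7.39, 4.23, 7.72 and 7.3 against 5.9, 3.48, 4.87, 3.16 and 6.72, with Ctrl from 1.41 through 2.21 to 2.72. All 10 CM mice exceeded the Ctrl range, and the CM groups overlapped. Ms4a2 rose by 4.8 ± 0.61 over Ctrl in the no-month-4 group (adjusted p = 0.000312, limma), and the CM groups differed by 2.47 ± 0.69 (adjusted p = 0.203). Il1rl1, the receptor for interleukin 33, rose by 5.14 ± 0.7 over Ctrl and differed by 2.5 ± 0.8 between the CM groups (adjusted p = 0.221).

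Mcpt1, a mucosal mast cell protease, had 10.0 reads in the 6 Ctrl libraries, 22175 in the no-month-4 and 5593 in the month-4 libraries. Its level was 7.45, 9.16, 5.22, 9.02 and 6.55 against 6.71, -1.88, 4.58, 3.6 and 7.8, with Ctrl at -6.3 to -2.22. Mouse 2685 lay just above the Ctrl range and the other 9 CM mice far above it. Tph1, which makes serotonin in mast cells, had 0 reads in all 6 Ctrl libraries. Its median of 4.13 CPM in the no-month-4 group was at least 21.4-fold higher than the floor of 3 reads per library, and with Tph1 at that bound the list's median remained 4.09.

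Since GATA factors act on many genes of both lineages, the motif GATAA was sought on both strands (GATAA or TTATC) in RefSeq promoter windows of GRCm38.p6. It was found in 11 of 14 matched red cell promoters (78.6%), 7 of 13 mast cell promoters (53.8%), 2 of 7 B cell promoters (28.6%) and 1 of 18 cell cycle promoters (5.56%), beside 16.4% of 9653 promoters of measured genes and 25.8% of all 27025 promoters. A match describes the letters and does not show that a factor binds there. The shares use no difference between the groups of mice. The windows of Klf1 (1 match, chr8:84901732-84902031, plus strand), Ms4a2 (3 matches, chr19:11623670-11623969, minus strand) and Tspo2 (0 matches, chr17:48451452-48451751, minus strand) are printed as examples of genes described above. Tspo2 is in neither list. Each reads 5′ to 3′ on the gene's strand, with the motif in capitals.
Klf1: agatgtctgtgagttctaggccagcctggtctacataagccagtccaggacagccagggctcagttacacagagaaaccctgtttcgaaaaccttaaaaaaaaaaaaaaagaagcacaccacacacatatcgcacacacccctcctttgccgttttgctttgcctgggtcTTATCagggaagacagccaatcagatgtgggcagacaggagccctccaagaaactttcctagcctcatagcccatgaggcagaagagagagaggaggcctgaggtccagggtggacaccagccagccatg
Ms4a2: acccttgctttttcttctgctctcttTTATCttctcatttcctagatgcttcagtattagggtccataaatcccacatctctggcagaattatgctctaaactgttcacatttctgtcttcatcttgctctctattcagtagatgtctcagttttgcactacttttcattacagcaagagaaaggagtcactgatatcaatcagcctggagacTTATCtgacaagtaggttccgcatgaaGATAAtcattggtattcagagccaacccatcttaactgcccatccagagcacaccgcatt
Tspo2: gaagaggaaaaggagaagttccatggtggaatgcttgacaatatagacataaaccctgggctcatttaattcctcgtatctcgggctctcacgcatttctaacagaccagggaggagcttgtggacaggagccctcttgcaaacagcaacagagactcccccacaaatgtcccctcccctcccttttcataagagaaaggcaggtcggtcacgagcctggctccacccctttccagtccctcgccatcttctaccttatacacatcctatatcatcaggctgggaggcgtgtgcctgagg

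Among stem and progenitor genes 10 of 19 were called higher and 2 lower than Ctrl in the no-month-4 group (median 1.08). The month-4 group had 1 called, Kit, with nearly the same median, 1.04. Between the CM groups 0 were called and the median was 0.09.

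Kit (ENSMUSG00000005672, chromosome 5, 75574987 to 75656722, GRCm38.p6) was 3.72, 3.83, 2.87, 3.43 and 3.74 in the no-month-4 group and 3.39, 2.89, 3.56, 1.94 and 3.55 in the month-4 group, with Ctrl from 0.81 through 1.16 to 1.37. Every CM mouse lay above every Ctrl mouse, with 2700 closest to them, and the CM groups overlapped. Kit rose by 2.45 ± 0.27 over Ctrl in the first group (adjusted p = 0.000205, limma) and by 1.85 ± 0.27 in the second (adjusted p = 0.0304). The CM groups differed by 0.6 ± 0.31 in the fit (adjusted p = 0.353). Their means, 3.52 ± 0.39 and 3.07 ± 0.68 (SD, n = 5 each), differed by 0.45, with p = 0.214 in the exact two-sided permutation test. Without 2700 the difference in means was 0.17 (p = 0.468 in the same exact test) and the fitted one 0.04 ± 0.26 (adjusted p = 0.96). Without 2700 Kit was also 2.29 ± 0.22 over Ctrl in the month-4 group (adjusted p = 0.000642, limma).

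The Kit call in the month-4 group was lost when any one of mice 2683, 2684, 2686, 2689, 2702, 2718 and 2720 was left out, and also with voom. Scin, an actin-severing protein, and Ccl24, a chemokine for eosinophils, were the other 2 genes called there, by 2.52 ± 0.33 (adjusted p = 0.0226, limma) and 5.54 ± 0.83 (adjusted p = 0.0318). Scin was 3.15, 3.14, 2.72, 3.23 and 2.98 against 2.35, 1.61, 2.53, 1.92 and 3.22, with Ctrl from -1.27 through -0.05 to 0.72. Ccl24 was 3.87, 2.64, 0.36, 2.54 and 0.98 against 0.65, 1.06, 0.74, -0.19 and 2.91, and had 0 to 3 reads in each Ctrl library. Without 2700 the CM groups differed in Scin by 0.09 ± 0.42, beside 0.51 ± 0.38 with it. The Scin call was lost with voom and without any one of 2683, 2684, 2686 and 2720. The Ccl24 call was lost with voom, with quantile normalization and without any one of 2683, 2684, 2686, 2689, 2702, 2708, 2718 and 2720. Ccl24 was named after its value was seen, as 1 of only 3 calls.

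Hlf, a transcription factor of stem cells, was 2.77, 3.92, 0.6, 3.46 and 2.71 against 2.47, -1.58, 0.99, 0.5 and 2.51, with Ctrl at -1.58 to -0.61. Mouse 2685 lay at the lowest Ctrl level, and every other CM mouse above the Ctrl range. Hlf rose by 3.77 ± 0.68 over Ctrl in the no-month-4 group (adjusted p = 0.00131, limma) and differed by 2.06 ± 0.78 between the CM groups (adjusted p = 0.255). Cd34, a surface antigen of progenitors, rose by 2.24 ± 0.4 over Ctrl and differed by 1.24 ± 0.46 between the CM groups (adjusted p = 0.248).

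Cell cycle genes had 14 of 20 called higher and 0 lower than Ctrl in the no-month-4 group (median 1.41). The month-4 group had 0 called against Ctrl (median 0.47), and the CM groups 0 (median 0.89, 18 of 20 above 0). Top2a, the topoisomerase of dividing cells, was 5.64, 6.09, 4.26, 6.28 and 6.29 against 4.94, 3.86, 4.64, 3.67 and 5.65, with Ctrl from 3.52 through 3.65 to 3.89. Mice 2685 and 2700 lay within the Ctrl range and every no-month-4 mouse above it. Top2a rose by 2.21 ± 0.36 over Ctrl in that group (adjusted p = 0.00074, limma) and differed by 1.48 ± 0.41 between the CM groups (adjusted p = 0.203). Bub1, a spindle checkpoint kinase, and Cdk1, which drives entry into mitosis, differed by 2.27 ± 0.71 and 2.36 ± 0.72 between the CM groups (adjusted p = 0.218 and 0.205).

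Of 6 primary granule genes measured, 2 were called higher than Ctrl in the no-month-4 group, Mpo and Fcnb (list median 2.04, or 1.13 with quantile normalization). Mpo, myeloperoxidase, was 1.95, 1.33, -2.0, -1.74 and 1.19 against -1.7, -2.28, -2.0, -1.57 and 0.23, with Ctrl at -3.78 to -2.28. In the first group 3 mice lay above the whole month-4 group and 2 within it. Of 13 neutrophil genes 3 were called higher and 2 lower, beside 9.62% and 23.1% of all genes, so the lower count is not above that share. Camp and Ngp, secondary granule proteins, rose by 2.75 ± 0.67 and 2.49 ± 0.65, and Csf3r, the receptor for G-CSF, fell by 1.42 (SE 0.34). Monocyte genes had 0 of 12 called.

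Interferon response genes had 6 of 17 called higher and 0 lower than Ctrl in the no-month-4 group (median 0.24), with medians of 0.14 in the month-4 group and 0.22 between the CM groups (0.05 without 2700) and 0 calls in both. Rsad2, the antiviral protein viperin, was 11.5, 11.61, 9.79, 11.65 and 11.6 against 11.08, 9.99, 10.73, 9.19 and 10.09, with Ctrl from 7.81 through 8.32 to 9.46. Of the no-month-4 mice 4 exceeded the month-4 group, and 2700 lay within the Ctrl range. Rsad2 rose by 3.03 ± 0.38 over Ctrl (adjusted p = 0.000312, limma) and differed by 1.37 ± 0.43 between the CM groups (adjusted p = 0.219). Isg15, a ubiquitin-like modifier, rose by 2.55 ± 0.4 in the no-month-4 group, and Cxcl10, a chemokine, was -0.33 from Ctrl (adjusted p = 0.709).

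B cell genes were lower in the no-month-4 group, with 0 called higher and 11 of 12 lower than Ctrl (median -0.99), beside 23.1% of all genes called lower. The month-4 group had 0 called (median -0.4), and the CM groups 0 (median -0.58, 12 of 12 below 0, and -0.32 without 2700). Pax5, the factor that fixes B cell identity, was 7.31, 7.7, 8.19, 7.78 and 7.35 against 8.46, 8.71, 7.92, 8.96 and 7.65, with Ctrl from 8.49 through 8.98 to 9.44. All 5 no-month-4 mice lay below the Ctrl range, as did 2684, 2686 and 2718 of the month-4 group, and the CM groups overlapped. Pax5 fell by 1.37 from Ctrl (SE 0.24, adjusted p = 0.00108, limma) and was -0.83 ± 0.27 between the CM groups (adjusted p = 0.23).

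Natural killer and cytotoxic genes had 6 of 12 called lower than Ctrl in the no-month-4 group (median -0.81), beside 23.1% of all genes. Ncr1, an activating receptor of natural killer cells, was 2.65, 4.28, 4.52, 3.8 and 2.64 against 3.97, 5.32, 3.93, 4.89 and 3.22, while the 6 Ctrl mice read 5.0 to 5.25. All no-month-4 mice lay below Ctrl, as did 4 of the 5 month-4 mice, and 2685 lay above it. Ncr1 fell by 1.56 from Ctrl (SE 0.4, adjusted p = 0.00874, limma) and was -0.72 ± 0.46 between the CM groups (adjusted p = 0.445), or -0.38 ± 0.53 without 2700. T cell genes had 1 of 13 called higher, Cd4 (0.64 ± 0.21), and 5 with median-ratio scaling. Dendritic cell genes had 2 higher and 3 lower of 11, immediate early genes 4 lower of 12, eosinophil genes 1 lower of 3, and ribosome biogenesis genes 0 of 10 (4 higher with median-ratio scaling). With 9.62% of all genes called higher and 23.1% lower, the dendritic cell, immediate early and eosinophil counts of lower members are near the share over all genes.

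Platelet and megakaryocyte genes ran the other way between the CM groups. Their median over Ctrl was 0.74 in the no-month-4 group (3 of 14 called higher, and 0 to 9 over the alternatives run) and 1.18 in the month-4 group (0 called). Between the CM groups it was -0.44, with 14 of 14 below 0 and 0 called. Ppbp, the platelet basic protein, was 9.93, 10.15, 9.07, 10.48 and 10.71 against 11.42, 10.72, 11.96, 10.12 and 11.09, with Ctrl from 8.93 through 9.48 to 11.1. With 2709 assigned to the month-4 group the list's median between the CM groups became 0.13, with 9 of 14 above 0. Without 2709 the median was -0.26, with 10 of 14 below 0. With mouse 2700 left out, Ppbp was -0.82 (SE 0.5) between the CM groups. The list members Gp5, Gp6 and Gp1ba were then -0.77, -0.73 and -0.59, and 0 genes were called. Each of these values lay below -0.58, the lowest of the 14 with all mice. The list's summed level was 2560 to 8460 CPM, 4640 to 14800 CPM and 2050 to 8100 CPM in the no-month-4, month-4 and Ctrl mice, and its part in the other results was not tested.

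**Figure D2:**
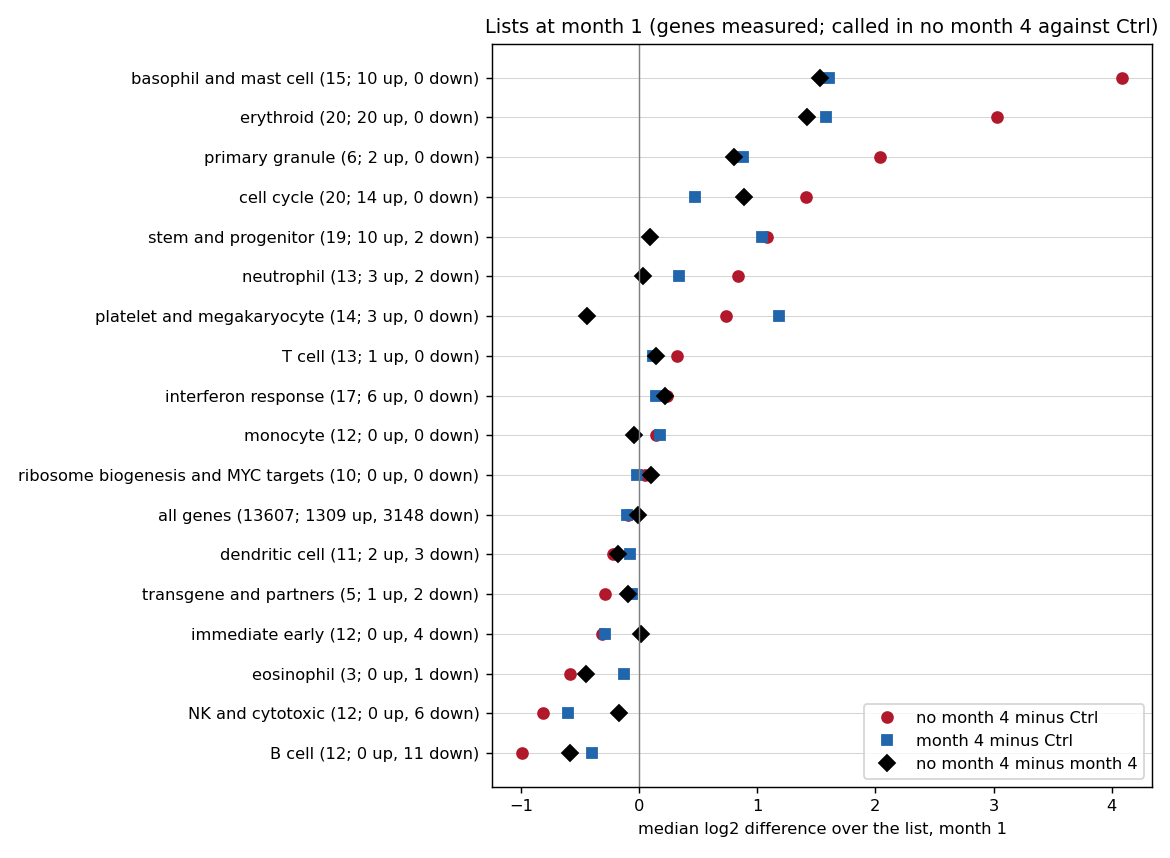
Median fitted log2 difference at month 1 (horizontal axis) over each gene list (vertical axis, with genes measured and called) for the no-month-4 group minus Ctrl (circles), the month-4 group minus Ctrl (squares) and the no-month-4 minus the month-4 group (diamonds). The mast cell and red cell lists lie farthest to the right, at 4.09 and 3.03 for the no-month-4 group.

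Other genes outside the lists were also among those with the smallest p between the CM groups. Sec61g, a subunit of the protein translocation channel, was 3.59, 3.77, 3.48, 3.88 and 3.8 against 3.29, 2.97, 3.08, 2.94 and 3.01, a difference of 0.65 ± 0.12 (adjusted p = 0.199, limma). Mpc2, a subunit of the mitochondrial pyruvate carrier, differed by 0.45 ± 0.09. In both genes every no-month-4 mouse lay above every month-4 mouse, which held for 33 genes (0.243%), and 0.772% of genes lay wholly lower.

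Among the lower values, Lpp, a focal adhesion scaffold, was -0.52 ± 0.1, the mitochondrial mt-Nd6 -0.93 ± 0.19, R3hdm2 -0.55 ± 0.11 and Fbxo11, a ubiquitin ligase subunit, -0.44 ± 0.09, each at adjusted p = 0.199 (limma). Fbxo11 was 5.81, 5.96, 6.21, 5.99 and 6.04 against 6.17, 6.39, 6.32, 6.64 and 6.28, with Ctrl from 6.58 through 6.69 to 6.75, and the CM groups overlapped only through 2709 and 2684. As preparation was unstranded, reads of mt-Nd6 and of transcripts from the opposite strand cannot be told apart.

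The comparison of the CM groups changed with the place of mouse 2709. With 2709 assigned to the month-4 group 356 genes were called (2.62%), 312 of them higher (2.29%) and 44 lower (0.323%), and without 2709 there were 151 calls (1.11%). In the first of these, 12 of 20 red cell, 6 of 15 mast cell, 8 of 20 cell cycle, 3 of 19 stem and progenitor and 2 of 17 interferon genes were higher, and 1 of 12 B cell genes lower. Tspo2 then differed by 1.76 ± 0.3 (adjusted p = 0.00962), Ms4a2 by 2.86 ± 0.51 (adjusted p = 0.0107) and Top2a by 1.75 ± 0.28 (adjusted p = 0.00962). Of the 356 calls 142 were among the 151 made without 2709 (39.9% and 94% of each). Leaving out 2700 as well left 22 calls, with 1 of 20 red cell and 0 of 15 mast cell genes.

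Other single mice changed the counts too. Without 2700 alone the month-4 group had 5 calls against Ctrl and the CM groups had 0 between them by limma, with 1429 genes at an unadjusted p under 0.05. Without 2718, whose Ms4a2 and Klf1 were the highest of the month-4 group, the CM groups had 262 genes called higher and 208 lower, and 87 of these 470 were among the 356. Ctrl mouse 2705, of genotype code HW, had the highest Kel and Tspo2 of the Ctrl mice. Without it the month-4 group had 515 of all 13607 genes higher and 562 lower than Ctrl. Among the higher were 16 of 20 red cell and 13 of 14 platelet genes. Without 2709 that comparison had 313 higher and 84 lower, without 2685 it had 81 and 51, and without sex in the model 402 higher and 238 lower. The call of all 20 red cell genes in the no-month-4 group held whichever of the 16 mice was left out.

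**Figure D3:**
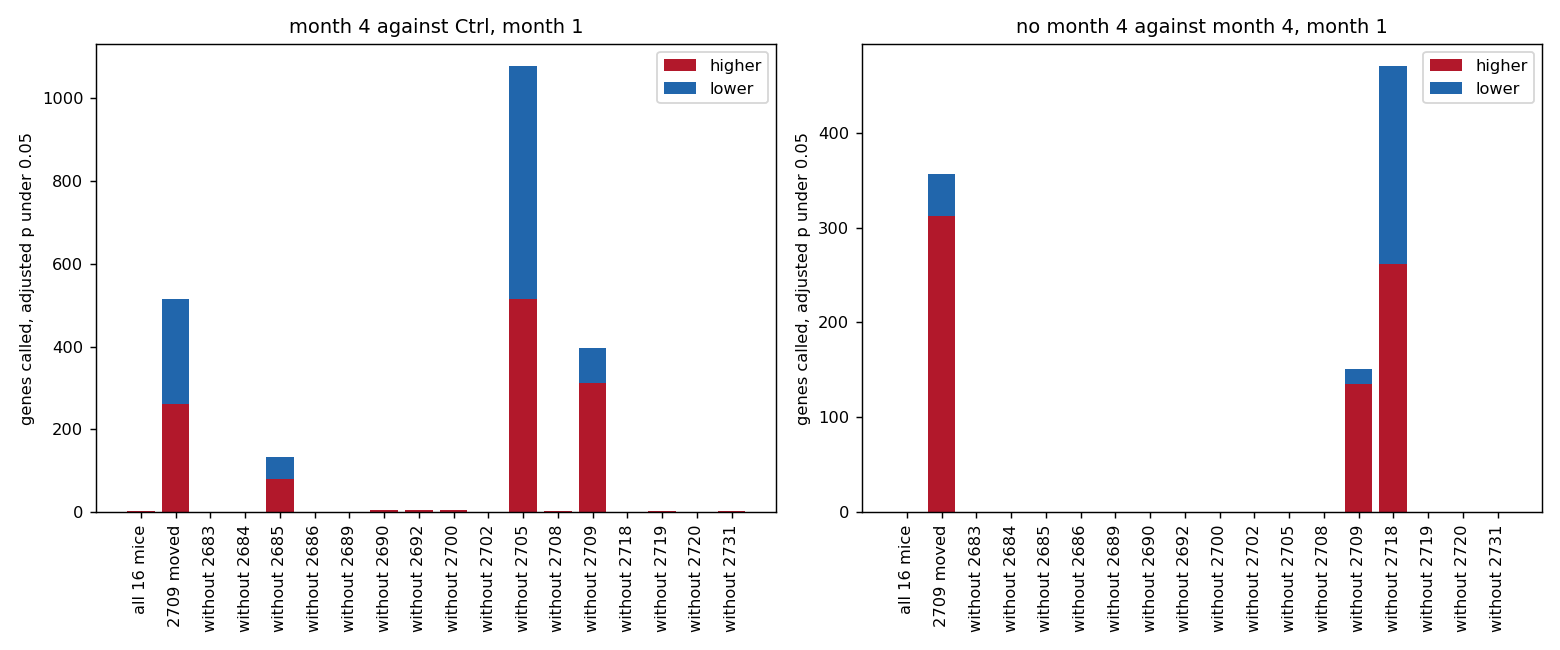
Genes called at month 1 (vertical axes, higher and lower stacked) with all 16 mice, with 2709 assigned to the month-4 group and without each mouse in turn (horizontal axes). In the left panel, month-4 against Ctrl, the highest bar is without 2705 at 1077, and in the right panel, no-month-4 against month-4, without 2718 at 470.

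Sex and group were largely joined, so differences of group means within each sex are given without a test. They rest on mouse 2700 alone for month-4 females and on 2719 alone for no-month-4 males. Klf1 differed by 3.09 in females and 2.46 in males, Ms4a2 by 3.15 and 2.48, and Top2a by 1.9 and 1.51. Kit differed by 1.6 in females and 0.08 in males, and Pax5 by -1.32 and -0.4.

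Before induction the CM groups had 0 calls with limma (504 genes, 3.7%, at an unadjusted p under 0.05). In that fit 19 of 20 red cell genes were above 0 (median 0.53 beside -0.07) and 14 of 14 platelet genes below it, the order of month 1. Mouse 2690 stood apart in platelet genes. Its Ppbp was 7.97 and its Gp5 4.06 at month 0, where the other CM mice read 10.05 to 10.96 and 6.44 to 7.05. It was also highest in Kel, at 3.44, while 2719 was lowest, at 0.31. How far these list results rest on 2690 was not tested. Tspo2 was 4.87, 3.13, 2.69, 1.88 and 3.43 against 2.26, 1.52, 1.65, 2.22 and 2.53 at month 0, with 2690 highest. Measured as each mouse's own change from month 0 to month 1, the CM groups had 0 calls with limma (809 genes, 5.95%, at an unadjusted p under 0.05). The medians of that change were 0.74 for red cell and 0.95 for mast cell genes beside 0.06 over all genes. Kit was 1.3, 1.82, 1.07, 0.85 and 1.09 against 1.44, 1.31, 1.24, 2.04 and 1.45 at month 0, where the 6 Ctrl mice read 0.42 to 1.77, beside 0.81 to 1.37 at month 1. The 2 months are different sequencing runs, which cannot be told apart from time in any one mouse.

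At month 2 Kit was 5.23, 6.84, 3.12, 5.47 and 9.02 against 4.36, 3.88, 4.25, 2.56 and 4.47. Of the no-month-4 mice 4 exceeded the whole month-4 group and 2709 lay within it. The difference was 2.21 ± 0.86 (adjusted p = 0.254), with 0 calls over all genes by limma and 2296 (16.9%) at an unadjusted p under 0.05, or 3056 calls with 2709 assigned to the month-4 group and 1863 without 2709.

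Month 3 compared 4 no-month-4 mice, as 2731 had no library, with the 5 month-4 mice, and 3453 genes were called higher and 3111 lower (25.4% and 22.9%, together 48.2%, with 56.8% at an unadjusted p under 0.05). Without 2719 there were 0 calls by limma and 4493 genes at an unadjusted p under 0.05. Kit was 8.57, 7.26, 3.45 and 10.2 in 2690, 2708, 2709 and 2719 against 4.89, 3.76, 4.61, 2.15 and 3.34. Mouse 2709 lay within the month-4 range and the other 3 above it, a difference of 4.27 ± 1.07 (adjusted p = 0.0139).

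At month 3 the counts stood beside 25.4% of all genes called higher and 22.9% lower. Of 20 red cell genes 5 were called higher and 7 lower, near those shares, while cell cycle genes had 18 of 20 higher, mast cell genes 6 of 15 and stem and progenitor genes 10 of 19. Interferon genes, of which 13 of 17 were above 0 at month 1, had 15 called lower and 0 higher at month 3. Rsad2 was 6.65, 11.23, 9.15 and 1.85 against 11.99, 10.4, 11.4, 9.85 and 11.27, a fitted difference of -4.54 (adjusted p = 0.0202). B cell genes had 12 of 12 lower, T cell genes 12 of 13 and platelet genes 11 of 14. Each month came from its own sequencing run, and libraries from month 2 on were stranded apart from those labelled L, so groups were tested within a month.

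**Figure D4:**
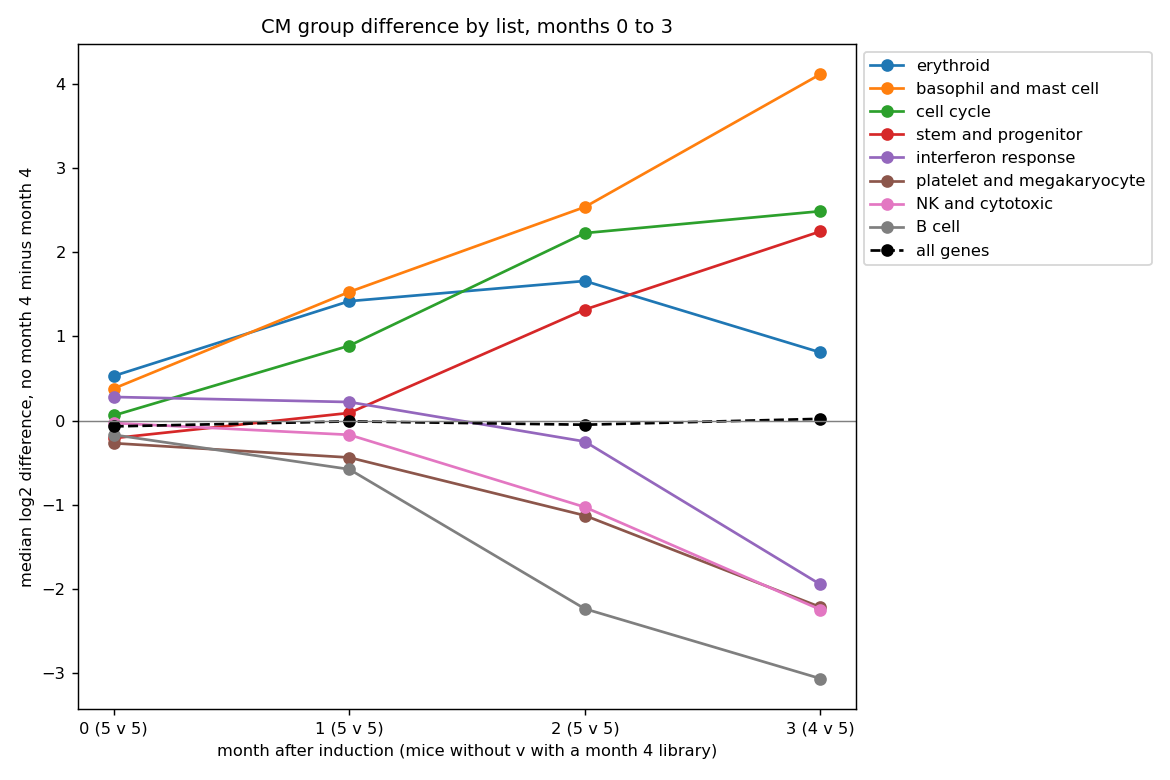
Median fitted log2 difference, no-month-4 minus month-4 group (vertical axis), over 8 gene lists and all genes at months 0 to 3 (horizontal axis, with mice per group). The interferon list passes from 0.22 at month 1 to -1.95 at month 3 and the B cell list from -0.58 to -3.07.

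In later months the month-4 mice spread widely in Kit. At month 4 they read 7.28, 4.16, 4.74, 1.71 and 4.63, with the Ctrl mice at 1.36 to 2.57. At month 5 mouse 2709 read 3.39, and 2685, 2686, 2700 and 2718 read 3.08, 4.88, 1.54 and 6.23, with Ctrl at 1.2 to 2.2. At month 6 mouse 2709 read 2.84, and 2685, 2686 and 2700 read 2.78, 4.95 and 1.98, with Ctrl at 0.89 to 2.66. Mouse 2700 lay within the Ctrl range at each of these months and the other CM mice above it. The 6 CM mice with a library labelled L had Kit of 8.22 to 11.44 in it. No Ctrl mouse had a library labelled L, so no Ctrl level is set beside these values.

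**Figure D5:**
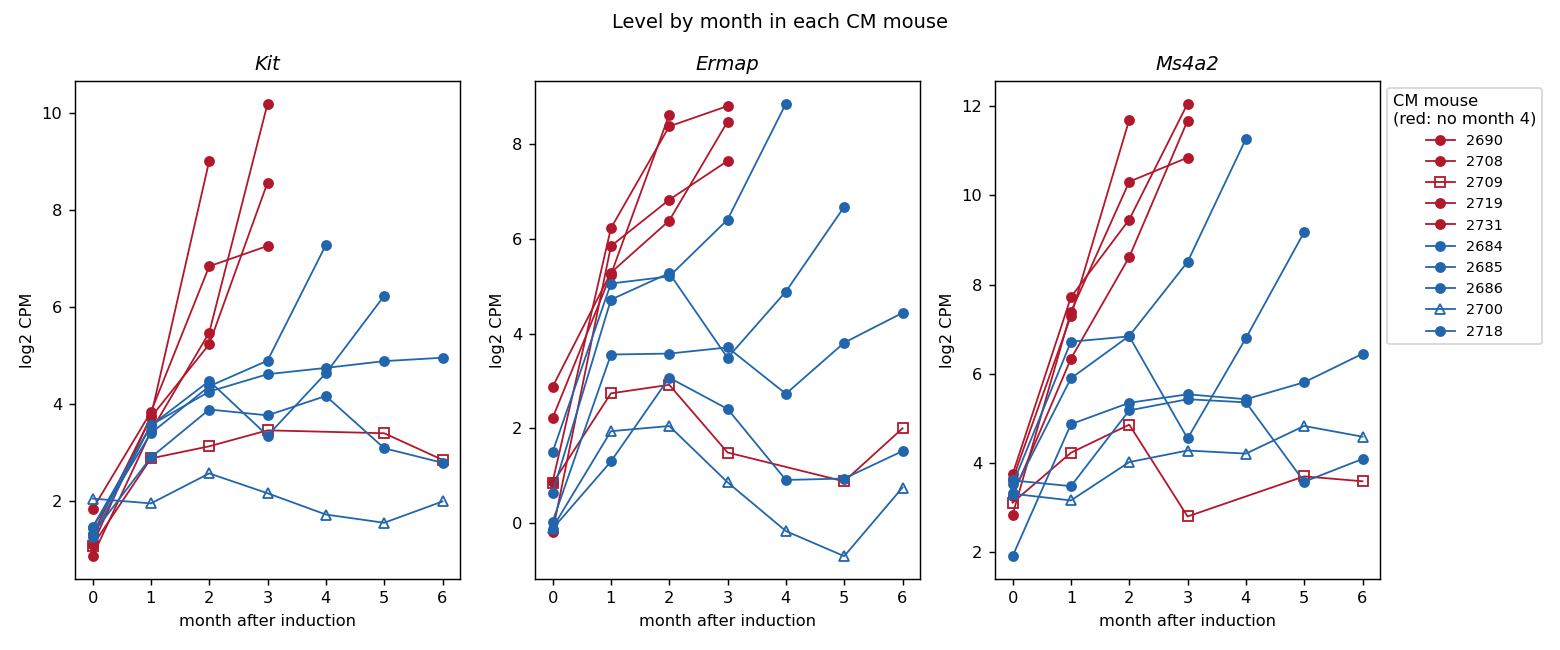
Kit, Ermap and Ms4a2 in log2 CPM (vertical axes) by month after induction (horizontal axes), 1 line for each of the 10 CM mice, red without and blue with a month 4 library. The open square is 2709 and the open triangle 2700, and Kit in 2709 reads 2.87 to 3.45 at months 1, 2, 3 and 5, each month a separate sequencing run.

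In the training cohort the like comparison at month 1 set 2 CM mice without a month 5 library against 5 with one. It gave 0 calls of 18508 genes with limma, with 658 (3.56%) at an unadjusted p under 0.05. Kit was 4.61 to 4.62 in the first group and 3.14 to 4.3 in the second, a difference of 0.98 ± 0.82 (adjusted p = 0.782). The training Ctrl mice ran from 1.07 through 1.8 to 4.95, so the highest Ctrl value exceeded every CM mouse. Both mice of the first group were female, and the second held both sexes. Ms4a2 was 5.93 to 5.98 against 2.08 to 5.67, and both mice of the first group lay above the second. Tspo2 was 4.61 to 5.05 against 3.3 to 6.7, within its range. The list medians were 0.03 for red cell and 1.22 for mast cell genes beside 0.29 over all genes.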

How the data were processed

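Peripheral blood RNA was sequenced from CM and Ctrl mice. The authors deposited log2 CPM values per gene, whose making, per the submitters' processing notes, used STAR, Subread and featureCounts with GRCm38, each with its version not given in the sources used here. Per its name, the deposited validation table keeps genes reaching 5 CPM in 2 samples. Whole reads were recovered for 100% of values (tolerance 0.01), with a prior of 0.25 reads.

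The 16 month 1 libraries were fitted with limma 3.58.1 (R 4.3.3) on the deposited log2 CPM with an intensity trend, 3 groups and sex, and adjusted by Benjamini-Hochberg over 13607 genes. Month 0, 2 and 3 libraries, own changes from month 0 and the training cohort were fitted in the same way. Kit and the globin share were compared by exact permutation, without sex. The fits were tested on simulated data.

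Symbols were found for 12612 of 13607 IDs. The genes named were up to 10 increases and 10 decreases per comparison, by size among those called with mean log2 CPM above 1, by smallest p between the CM groups, up to 4 members of each of 17 lists, and Kit, Cbfb and MHY11. The members and lists were chosen with earlier results of these data known. T1 mice are separate animals, and the replicate block paired the month 0 and month 1 libraries of each mouse (consensus correlation 0.252). Alternatives covered scaling, voom, filters, sex, mice 2700 and 2709, and leaving out each mouse.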

Additional observations from a re-analysis of the deposited data

Results flagged for a closer look

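At month 1, 315 gene and group combinations were examined for 1 mouse standing far from the rest of its group, and 32 were found. The nominal rate of about 1 in 20 is no measure of chance here. The genes were chosen from these data, and many of the flagged values come from the same mouse. What moved the 32 values was not tested. Of the 32, 16 belonged to mouse 2709 in the no-month-4 group, each of them low. In log2 CPM, Tspo2 was 4.16 in 2709 against 5.50 to 5.74 in the others, Tmem256 was 4.49 in 2709 against 5.20 to 5.37 in the others, Glrx5 was 5.71 in 2709 against 6.71 to 6.97 in the others, Marchf5 was 5.71 in 2709 against 6.24 to 6.34 in the others. In log2 CPM, Prdx2 was 7.01 in 2709 against 7.97 to 8.36 in the others, Col5a1 was 1.81 in 2709 against 4.92 to 5.86 in the others, Gstt1 was 1.67 in 2709 against 5.06 to 6.17 in the others, Ermap was 2.74 in 2709 against 5.25 to 6.23 in the others. In log2 CPM, Il1rl1 was 4.33 in 2709 against 6.89 to 7.88 in the others, Car1 was 1.21 in 2709 against 4.31 to 5.42 in the others, Kel was 3.02 in 2709 against 5.09 to 5.78 in the others, Gp5 was 5.4 in 2709 against 6.63 to 7.04 in the others. In log2 CPM, Rsad2 was 9.79 in 2709 against 11.50 to 11.65 in the others, Isg15 was 4.24 in 2709 against 5.97 to 6.43 in the others, Bub1 was -0.63 in 2709 against 1.93 to 2.50 in the others, Ccnb2 was 1.21 in 2709 against 3.36 to 3.95 in the others.

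A further 8 belonged to Ctrl mouse 2705, 6 of them high and 2 low. In that mouse Tspo2 was 3.85 where the other Ctrl mice read 1.95 to 2.56, Urod was 5.65 where the other Ctrl mice read 4.97 to 5.21, Prdx2 was 7.11 where the other Ctrl mice read 5.78 to 6.09, Gstt1 was 2.89 where the other Ctrl mice read -1.28 to 0.06. In that mouse Ctsg was -1.42 where the other Ctrl mice read -2.78 to -2.28, Kel was 2.75 where the other Ctrl mice read 0.45 to 1.05, Cxcl10 was -1.21 where the other Ctrl mice read 0.23 to 0.83, Nop58 was 5.73 where the other Ctrl mice read 6.00 to 6.13.

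The remaining 8 were single values. Siglech was 4.87 in mouse 2708 (no month 4 library), with 1.75 to 2.35 in the rest of the group. MHY11 was 0.05 in mouse 2700 (month 4 library), with 3.82 to 4.27 in the rest of the group. Mpo was 0.23 in mouse 2718 (month 4 library), with -2.28 to -1.57 in the rest of the group. Fos was 7.52 in mouse 2685 (month 4 library), with 6.05 to 6.47 in the rest of the group. Zcchc14 was 8.49 in mouse 2702 (Ctrl), with 2.16 to 2.67 in the rest of the group. Hlf was -1.58 in mouse 2692 (Ctrl), with -0.95 to -0.61 in the rest of the group. Mcpt4 was -3.70 in mouse 2720 (Ctrl), with -6.3 in the rest of the group. Bst2 was 4.41 in mouse 2683 (Ctrl), with 4.72 to 4.84 in the rest of the group.

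The no-month-4 and month-4 groups differed at month 3 in 6564 genes by limma with adjusted p under 0.05. Without mouse 2719, the only male of the no-month-4 group, they differed in 0 genes.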

How the results depend on the processing

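The no-month-4 comparison with Ctrl kept within 1.5 times its 4457 calls under every alternative run. The month-4 comparison with Ctrl had 3 calls, against 1 with voom, 640 without sex, 515 with mouse 2709 moved to the month-4 group, 5 without 2700, 928 without 2700 and 2709, 738 with 2709 moved and 2700 left out (added after seeing the data), and 56 with the replicate block over months 0 and 1. Leaving out 1 mouse at a time gave 0 to 1077 calls, the highest without 2705.

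The CM comparison had 0 calls, against 356 with 2709 moved, 22 with 2709 moved and 2700 left out, and 1 with voom. It kept 0 under the other scalings, the filter, no sex term, the 10 CM libraries alone and the replicate block, and ran from 0 to 470 calls over single mice left out. The change from month 0 had 13 calls with 2709 moved and 0 to 2 over mice left out, month 0 had 0 to 1, and the training cohort 0 to 1. Month 2 had 3056 with 2709 moved and 0 to 1863 over mice left out. Month 3 ran from 0 (without 2719) to 8896 over mice left out. The Kit difference was 0.64 (exact permutation p = 0.0476, sex not used) with 2709 moved. Over mice left out it ran from 0.17 (without 2700) to 0.61 (without 2709). The globin difference ran from 0.39 (without 2700) to 0.80.

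Of the named genes, 24 passed the threshold between the CM groups with 2709 moved, 22 without 2709, 26 without 2718 and 5 with 2709 moved and 2700 left out. Genes with small differences changed sign. Without sex Cxcl10 was 0.05, Egr1 0.13 and Cbfb 0.14. With 2709 moved Nr4a1 was 0.14, Gp5 0.11, Ccr3 0.05 and Ear2 0.03, and with 2700 also left out 0.23, 0.11, 0.16 and 0.06, with Fbl -0.01 and Dusp1 0.02. Without 2700 Cbfb was 0.0, and with the replicate block Egr1 was 0.03. Over single mice left out, the CM difference ran in Ear2 from -0.31 to 0.09, Nr4a1 from -0.54 to 0.06, Cxcl10 from -1.14 to 0.01, Ly6c2 from -0.04 to 0.56, Siglech from -0.01 to 0.88 and Cbfb from -0.23 to 0.0, with Ear2 at 0.03 without 2685. The cause of these changes was not tested. Genes near 0 reads have the least precision at this depth.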
